A study of Mus musculus with 8 samples.

Results

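The 33 genes described here encode lysosomal hydrolases, lysosomal membrane proteins, subunits of the proton pump that acidifies the lysosome, progranulin, and 2 transcription factors of the lysosome. They were a named list, matched to the gene names of the non-control array probes, and are 33 of the 34743 named genes and features on the array. Their probes number 45, of which 43 were bright enough to be kept, and 32 of the 33 genes were tested among 21320. The gene left out was Ctsl (cathepsin L), whose probe was well above background on 0 of the 8 arrays, with signals of 2.55 to 3.08. The listed members fall into 8 roles: cathepsins, other peptidases, glycosidases, proteins of lipid breakdown and export, membrane proteins, proton pump subunits, transcription factors, and progranulin.

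RNA came from wk3, a mouse line of pre-B cells deficient in the adaptor SLP-65 (genotype SLP-65-/-), kept in excess interleukin 7 (IL-7), the cytokine of early B cell precursors. Cells were transduced with a retroviral vector and selected with puromycin, and 4 groups of 2 arrays were compared: miR-15 sponge cells 36 h without IL-7, the same cells with IL-7, scrambled sponge cells 36 h without IL-7, and scrambled sponge cells with IL-7. A sponge is a transcript carrying many binding sites for a microRNA family, here miR-15, and the scrambled sponge is its control vector. All groups share the SLP-65 deletion, the transduction and the selection. The 2 arrays of a group are separate experiments with independently made clones of this 1 line, so clone and experiment cannot be told apart, and the promoter that drives the sponge is not given in the sources used here.

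Lysosomes are acidic compartments that break down proteins, glycans and lipids delivered by endocytosis and autophagy. Most of their hydrolases reach them through the mannose 6-phosphate route, and a vacuolar proton pump keeps them acidic. TFEB and TFE3 are transcription factors that enter the nucleus when the kinase complex mTORC1 is inactive and bind the CLEAR element, an E-box with the core CACGTG, near lysosomal genes. In B cells, cathepsins and legumain are known for cutting antigen and the invariant chain in the MHC class II pathway.

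The microRNAs that the sponge was made to bind are shown because every sponge contrast below rests on them. Their mature sequences are from RefSeq on GRCm38.p6, with the seed, bases 2 to 8, in capitals. The 6 share 1 seed, AGCAGCA. The miR-16-5p sequence has a 2nd locus, chr14:61631936-61631957 on the minus strand, and is printed once.
mmu-miR-15a-5p (chr14:61632075-61632096, minus strand): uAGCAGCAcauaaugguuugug
mmu-miR-15b-5p (chr3:69009775-69009796, plus strand): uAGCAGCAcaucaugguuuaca
mmu-miR-16-5p (chr3:69009918-69009939, plus strand): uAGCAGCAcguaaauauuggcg
mmu-miR-195a-5p (chr11:70235062-70235082, plus strand): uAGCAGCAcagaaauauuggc
mmu-miR-322-5p (chrX:53054306-53054327, minus strand): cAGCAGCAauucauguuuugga
mmu-miR-497a-5p (chr11:70234730-70234751, plus strand): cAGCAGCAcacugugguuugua

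Promoter windows from RefSeq (GRCm38.p6), 250 bases before to 50 bases after a gene's start, were matched to 28 of the 33 members, which have 34 windows. The motif CACGTG reads the same on either strand, and it was in 10 of the 34 windows (29.4%), against 7.15% of all 32851 windows. The longer TCACGTGA, which contains CACGTG and is also the same on either strand, was in 5 windows (14.7%), against 0.97% of all. The stretches below show the motif in capitals in 8 members, the first 4 with TCACGTGA, and are given because those members are compared with the rest further on.
Ctsa (chr2:164833744-164833772, plus strand): aacaatgagcaaactgTCACGTGAtgcag
Ctsd (chr7:142387903-142387942, minus strand): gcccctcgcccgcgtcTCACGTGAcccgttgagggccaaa
Mcoln1 (chr8:3500457-3500496, plus strand): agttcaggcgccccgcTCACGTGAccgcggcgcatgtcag
Gla (chrX:134601210-134601249, minus strand): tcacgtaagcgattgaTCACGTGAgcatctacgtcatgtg
Lamp1 (chr8:13159083-13159122, plus strand): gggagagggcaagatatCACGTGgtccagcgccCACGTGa
Glb1 (chr9:114401013-114401052, plus strand): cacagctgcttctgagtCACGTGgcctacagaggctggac
Gaa (chr11:119267806-119267845, plus strand): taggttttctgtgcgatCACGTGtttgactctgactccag
Lgmn (chr12:102439119-102439158, minus strand): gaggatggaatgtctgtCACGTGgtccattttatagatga
Neu1, Ctss and Grn, which rose most in miR-15 sponge cells on withdrawal, had no CACGTG in the window, and the 250 bases before their starts are shown for comparison.
Neu1 (chr17:34931003-34931252, plus strand): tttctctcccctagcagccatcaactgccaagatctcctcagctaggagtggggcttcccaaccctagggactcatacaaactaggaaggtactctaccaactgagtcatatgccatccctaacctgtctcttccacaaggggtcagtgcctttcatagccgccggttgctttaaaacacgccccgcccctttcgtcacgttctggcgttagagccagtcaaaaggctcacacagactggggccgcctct
Ctss (chr3:95526536-95526785, plus strand): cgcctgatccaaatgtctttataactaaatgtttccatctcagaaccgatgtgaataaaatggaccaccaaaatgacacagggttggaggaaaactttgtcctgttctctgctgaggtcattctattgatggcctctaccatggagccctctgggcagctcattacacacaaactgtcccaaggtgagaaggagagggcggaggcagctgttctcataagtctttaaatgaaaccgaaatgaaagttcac
Grn (chr11:102430257-102430506, plus strand): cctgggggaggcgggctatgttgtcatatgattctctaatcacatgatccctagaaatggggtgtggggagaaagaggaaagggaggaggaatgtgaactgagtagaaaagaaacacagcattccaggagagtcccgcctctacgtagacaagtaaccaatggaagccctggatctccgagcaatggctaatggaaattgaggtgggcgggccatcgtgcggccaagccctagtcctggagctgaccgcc

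On the 8 arrays, 50.6% to 56.6% of 59305 non-control spots were well above background, 0 were saturated, and signals at the 75th percentile were 293.8 to 410.3. Levels below are log2 signals relative to that percentile of the same array, and each probe is compared only with itself. Pearson's r between the 2 arrays of a group, across genes, was 0.990 to 0.997. The arrays share 1 slide and 1 scan, those without IL-7 in 1 slide column and those with IL-7 in the other, so position on the slide cannot be told apart from withdrawal, and fewer cells expressing a gene cannot be told apart from less RNA per cell. The 10 pre-B cell markers were well above background on all 8 arrays. Of 10 myeloid markers 7 were tested and 4 were well above background on all 8 arrays, among them Itgam, which read 4.08 and 4.08 in sponge cells and 4.71 and 4.69 in scrambled cells without IL-7, while Fcgr1, Cd14 and S100a8 were not tested. Of the T cell, stromal and erythroid markers, 3 of 7, 1 of 6 and 3 of 5 were tested.

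Withdrawal of IL-7 starts differentiation in this line, and the comparison asks which lysosomal genes changed within 36 h. In both constructs the called members were almost all higher without IL-7. Genes counted as called had an adjusted p under 0.05 in limma's moderated test over all 21320 genes. In miR-15 sponge cells 7 of 32 tested members were called higher and 1 lower, where 7.91% of all genes were called higher and 14.8% lower. In scrambled sponge cells 17 of 32 were called higher and 1 lower, where 20.0% of all genes were higher and 28.0% lower. The median log2 change of the 32 members was 0.18 in sponge cells and 0.30 in scrambled cells, against -0.06 and -0.04 over all genes. The sponge median was 0.08 without sponge cells with IL-7 replicate 1 and 0.11 with normexp background correction, and the scrambled median was 0.49 with quantile scaling. Both arrays without IL-7 lay above both with IL-7 in 16 members in sponge cells and in 24 in scrambled cells, against 26.0% and 34.3% of all genes, and below them in 3 and 1, against 40.0% and 40.6%.

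The 7 members called higher in both constructs were Ctss, Lgmn, Tpp1, Neu1, Ppt1, Grn and Atp6ap1. Another 10 were called in scrambled cells alone: Ctsa, Ctsz, Scpep1, Gaa, Man2b1, Lipa, Asah1, Cd63, Lamp2 and Tfe3. Glb1 was the member called lower, in both constructs. Passing in 1 construct alone shows no difference between constructs, and the test of the difference itself, given further on, called 2 members. Leaving out 1 array at a time gave 5 to 7 members higher in sponge cells and 8 to 15 in scrambled cells, with the 8 found without scrambled sponge cells without IL-7 replicate 2. Quantile scaling of the arrays gave 10 and 22 members higher, and calls over all genes then split 51.6% higher in sponge cells, against 34.9% higher with the 75th percentile scaling.

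**Figure D1:**
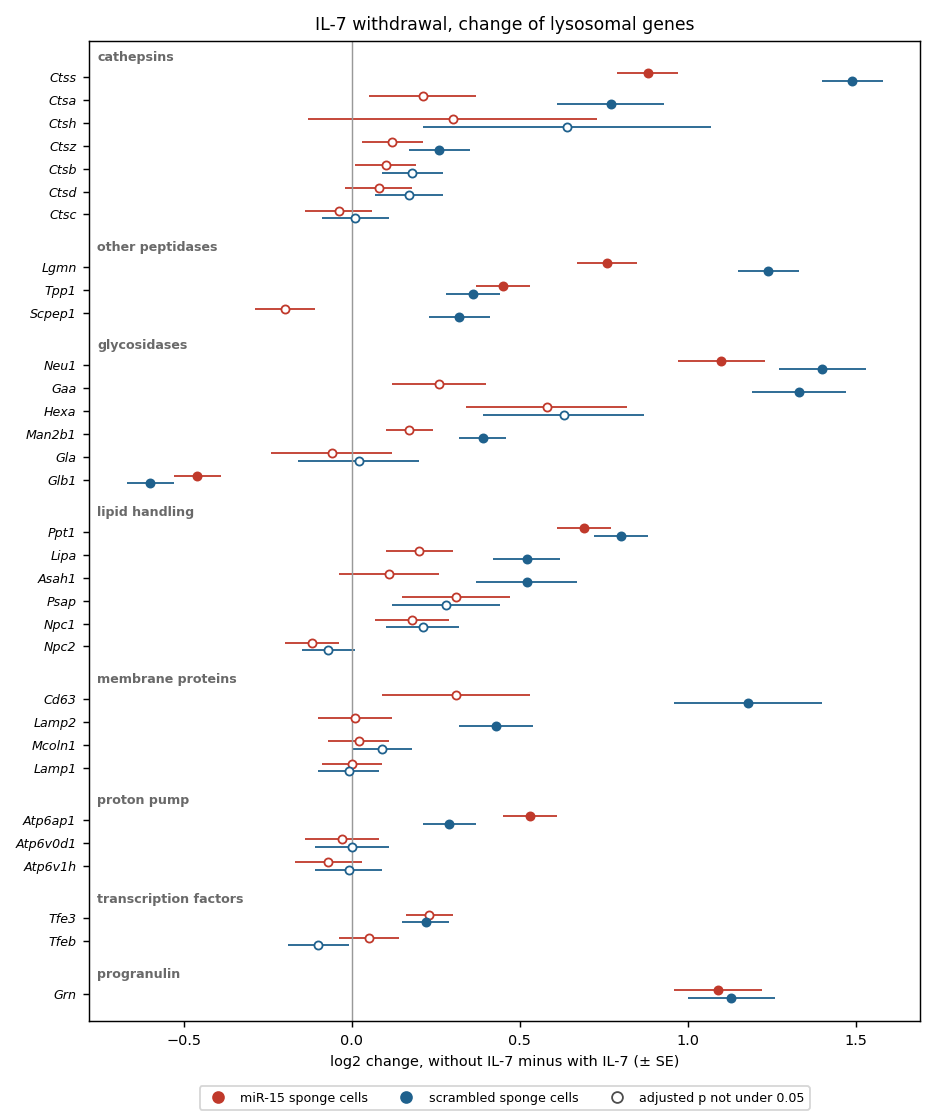
Log2 change on IL-7 withdrawal (without IL-7 minus with IL-7, ± SE from limma) of the 32 tested members by role, in miR-15 sponge cells (red, upper point) and scrambled sponge cells (blue, lower point), with filled points at an adjusted p under 0.05. Ctss, Neu1, Lgmn and Grn lie far to the right in both constructs, Gaa and Cd63 in scrambled cells, and Glb1 alone lies to the left with filled points.

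Cathepsins are the endopeptidase and exopeptidase group of the lysosome. Of 7 tested, 1 was called higher in sponge cells and 3 in scrambled cells, against 7.91% and 20.0% of all genes. Ctss encodes cathepsin S, the cysteine protease that trims the invariant chain in antigen-presenting cells. In sponge cells Ctss read 2.47 and 2.38 without IL-7, against 1.54 and 1.56 with IL-7, a log2 change of 0.88 ± 0.09 (SE, adjusted p = 0.00355). In scrambled cells Ctss read 3.65 and 3.82 without IL-7, against 2.24 and 2.24 with IL-7, a change of 1.49 ± 0.09 (adjusted p = 0.00024). The arrays without IL-7 were higher in both constructs with no overlap, and the probe lies at chr3:95360245-95360304 (mm9). Ctsa, the serine carboxypeptidase that also protects neuraminidase and beta-galactosidase in a complex, read 5.78 and 5.56 without IL-7, against 5.47 and 5.44 with IL-7, in sponge cells (0.21, adjusted p = 0.401). In scrambled cells Ctsa read 6.15 and 6.24 without IL-7, against 5.20 and 5.65 with IL-7 (0.77 ± 0.16, adjusted p = 0.0104). Ctsz, the carboxypeptidase cathepsin Z, changed by 0.26 in scrambled cells (adjusted p = 0.0472) and had 0.12 in sponge cells (adjusted p = 0.35). That Ctsz call was lost in 10 of 16 alternatives.

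Ctsb, Ctsc and Ctsd, the broadly expressed cathepsins B, C and D, had log2 changes of -0.04 to 0.10 in sponge cells and 0.01 to 0.18 in scrambled cells, none called. With quantile scaling, however, Ctsb (0.37, adjusted p = 0.0156) and Ctsd (0.34, adjusted p = 0.0381) were called higher in scrambled cells. Ctsh, the aminopeptidase cathepsin H, was well above background on 4 of 8 arrays and had the widest error, 0.30 ± 0.43 in sponge cells and 0.64 ± 0.43 in scrambled cells.

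Of 3 other peptidases, 2 were called higher in sponge cells and 3 in scrambled cells, against 7.91% and 20.0% of all genes. Lgmn encodes legumain, the asparaginyl endopeptidase that activates cathepsins and cuts antigen. In sponge cells Lgmn read -0.25 and -0.09 without IL-7, against -1.0 and -0.85 with IL-7 (0.76 ± 0.09, adjusted p = 0.00511). In scrambled cells it read 0.48 and 0.47 without IL-7, against -0.81 and -0.73 with IL-7 (1.24 ± 0.09, adjusted p = 0.00036). The 2 groups did not overlap in either construct (probe chr12:103632415-103632474, mm9, minus strand). Tpp1, the tripeptidyl peptidase deficient in a neuronal ceroid lipofuscinosis, read 1.1 and 1.12 without IL-7, against 0.61 and 0.71 with IL-7, in sponge cells (0.45 ± 0.08, adjusted p = 0.0118). In scrambled cells Tpp1 read 1.5 and 1.59 without IL-7, against 1.21 and 1.16 with IL-7 (0.36 ± 0.08, adjusted p = 0.0107). The 2 changes of Tpp1 differed by 0.09 ± 0.11, which missed the threshold (adjusted p = 0.647). Leaving out sponge cells with IL-7 replicate 1, or either replicate without IL-7, took the Tpp1 call in sponge cells to an adjusted p of 0.0537 to 0.0685, and leaving out scrambled cells without IL-7 replicate 2 took that in scrambled cells to 0.0693. Scpep1, a retinoid-inducible serine carboxypeptidase, read 2.24 and 2.27 without IL-7, against 2.51 and 2.39 with IL-7, in sponge cells (-0.20, adjusted p = 0.179). In scrambled cells it read 2.68 and 2.81 without IL-7, against 2.49 and 2.35 with IL-7 (0.32, adjusted p = 0.0321), a call lost in 8 of 16 alternatives.

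The glycosidases, which strip sugars from glycoproteins and glycolipids, went in both directions. Neu1 encodes the sialidase neuraminidase 1, which also limits exocytosis of lysosomes. In sponge cells Neu1 read 4.23 and 4.11 without IL-7, against 3.04 and 3.11 with IL-7 (1.1 ± 0.13, adjusted p = 0.0046). In scrambled cells it read 5.49 and 5.78 without IL-7, against 4.13 and 4.33 with IL-7 (1.4 ± 0.13, adjusted p = 0.000577). Both constructs rose more than 2-fold, 2.14-fold in sponge cells and 2.64-fold in scrambled cells, with no overlap (probe chr17:35072105-35072164, mm9). Gaa, the acid alpha-glucosidase that degrades glycogen, read -0.78 and -0.81 without IL-7, against -0.91 and -1.18 with IL-7, in sponge cells (0.26 ± 0.14, adjusted p = 0.260). In scrambled cells Gaa read -0.06 and 0.26 without IL-7, against -1.30 and -1.17 with IL-7 (1.33 ± 0.14, adjusted p = 0.000935). Only the scrambled groups were far apart for Gaa, and this difference between constructs is tested below.

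Glb1, the beta-galactosidase whose activity is read as a senescence stain, was lower without IL-7. In sponge cells Glb1 read 1.81 and 1.88 without IL-7, against 2.30 and 2.31 with IL-7 (-0.46 ± 0.07, adjusted p = 0.0089). In scrambled cells it read 1.85 and 1.91 without IL-7, against 2.49 and 2.46 with IL-7 (-0.60 ± 0.07, adjusted p = 0.00121). The groups did not overlap, although the call in sponge cells was lost without sponge cells with IL-7 replicate 2 (adjusted p = 0.0564). Man2b1, the lysosomal alpha-mannosidase, read 4.25 and 4.29 without IL-7, against 4.06 and 4.14 with IL-7, in sponge cells (0.17, adjusted p = 0.149), and 4.59 and 4.66, against 4.25 and 4.22, in scrambled cells (0.39 ± 0.07, adjusted p = 0.00609). Hexa, the alpha subunit of beta-hexosaminidase, had log2 changes of 0.58 ± 0.24 and 0.63 ± 0.24 in sponge and scrambled cells (adjusted p = 0.138 and 0.0726). The Hexa probe is dim, at -4.66 to -3.31. Over 16 alternatives its change ran from 0.06 to 0.78 in sponge cells and from 0.18 to 0.94 in scrambled cells. Gla, the alpha-galactosidase A deficient in Fabry disease, had changes of -0.06 and 0.02 with an SE of 0.18.

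**Figure D2:**
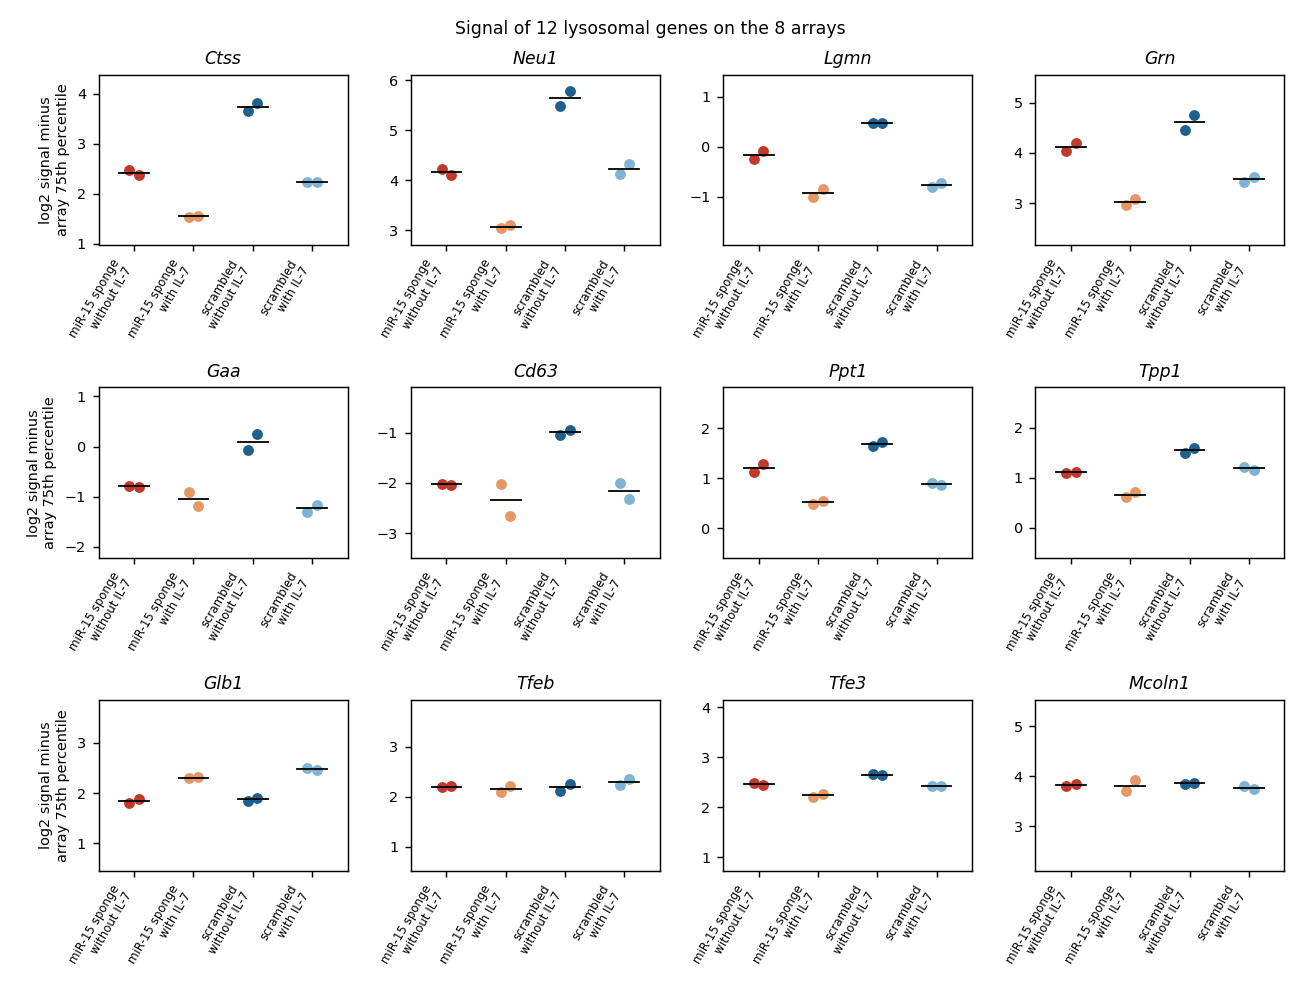
Log2 signal minus the 75th percentile of the array for 12 members, with 1 point per array, a line at the mean of the 2 arrays, and axes of equal span; groups run from miR-15 sponge cells, without and then with IL-7, to scrambled cells, without and then with IL-7. Scrambled cells without IL-7 stand highest for Ctss, Neu1, Lgmn, Grn, Gaa, Cd63, Ppt1 and Tpp1, Glb1 is highest in scrambled cells with IL-7, and Tfeb and Mcoln1 are nearly level.

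Lipid-handling members called higher were 1 of 6 in sponge cells and 3 of 6 in scrambled cells, against 7.91% and 20.0% of all genes. Ppt1, the thioesterase that removes palmitate from proteins, read 1.13 and 1.29 without IL-7, against 0.49 and 0.54 with IL-7, in sponge cells (0.69 ± 0.08, adjusted p = 0.00511). In scrambled cells Ppt1 read 1.65 and 1.73 without IL-7, against 0.91 and 0.87 with IL-7 (0.80 ± 0.08, adjusted p = 0.000885). The groups did not overlap, and the 2 changes differed by -0.10 ± 0.12 (adjusted p = 0.643). Lipa, the acid lipase that hydrolyses cholesteryl esters, had a log2 change of 0.20 in sponge cells (adjusted p = 0.217) and of 0.52 ± 0.10 in scrambled cells (adjusted p = 0.00793). Asah1, the acid ceramidase, had 0.11 in sponge cells (adjusted p = 0.655) and 0.52 ± 0.15 in scrambled cells (adjusted p = 0.0305). The cholesterol exporters Npc1 and Npc2 and the saposin precursor Psap lay between -0.12 and 0.31 in both constructs, none called. Psap was called with quantile scaling in scrambled cells (0.58, adjusted p = 0.0289).

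Membrane proteins called higher were 0 of 4 in sponge cells and 2 of 4 in scrambled cells, against 7.91% and 20.0% of all genes. No member of this role was called lower. Cd63, a tetraspanin of late endosomes and exosomes, read -2.02 and -2.04 without IL-7, against -2.03 and -2.65 with IL-7, in sponge cells (0.31 ± 0.22, adjusted p = 0.365). In scrambled cells it read -1.04 and -0.94 without IL-7, against -2.0 and -2.33 with IL-7 (1.18 ± 0.22, adjusted p = 0.00659). The scrambled arrays without IL-7 were well above the other 6, which overlapped one another. Lamp2, the glycoprotein that also serves chaperone-mediated autophagy, read 3.54 and 3.31, against 3.32 and 3.49, in sponge cells without and with IL-7 (0.01, adjusted p = 0.945). In scrambled cells Lamp2 read 3.80 and 3.93 without IL-7, against 3.45 and 3.44 with IL-7 (0.43 ± 0.11, adjusted p = 0.0232), a call lost in 5 of 16 alternatives.

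Lamp1, the most abundant glycoprotein of the lysosomal membrane, and Mcoln1, the TRPML1 calcium channel, were nearly level. Lamp1 had log2 changes of 0.00 in sponge cells (95% interval -0.22 to 0.22) and -0.01 in scrambled cells (-0.23 to 0.21). Mcoln1 read 3.81 and 3.85 without IL-7, against 3.71 and 3.92 with IL-7, in sponge cells (0.02, adjusted p = 0.897), and 3.85 and 3.87, against 3.80 and 3.74, in scrambled cells (0.09, adjusted p = 0.459). Those values depend on the scaling: with quantile normalization Lamp1 (0.46, adjusted p = 0.00546) and Mcoln1 (0.28, adjusted p = 0.0388) were called higher in scrambled cells, and Lamp1 also in sponge cells (0.37, adjusted p = 0.031).

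Of the proton pump subunits, Atp6ap1, an accessory subunit needed for pump assembly, was called in both constructs. It read 4.15 and 4.22 without IL-7, against 3.58 and 3.72 with IL-7, in sponge cells (0.53 ± 0.08, adjusted p = 0.00857). In scrambled cells Atp6ap1 read 4.18 and 4.12 without IL-7, against 3.86 and 3.86 with IL-7 (0.29 ± 0.08, adjusted p = 0.0279). Leaving out any 1 of the 4 scrambled arrays ended the call in scrambled cells (adjusted p = 0.0705 to 0.125), and leaving out sponge cells without IL-7 replicate 2 ended that in sponge cells (0.0575). Atp6v0d1 and Atp6v1h, of the membrane and the cytosolic sector, lay between -0.07 and 0.00 and were not called.

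Grn encodes progranulin, a secreted glycoprotein that is processed to granulins in the lysosome. In sponge cells Grn read 4.04 and 4.19 without IL-7, against 2.97 and 3.09 with IL-7 (1.09 ± 0.13, adjusted p = 0.00468). In scrambled cells it read 4.46 and 4.76 without IL-7, against 3.42 and 3.53 with IL-7 (1.13 ± 0.13, adjusted p = 0.00109). The rise was 2.12-fold in sponge cells and 2.20-fold in scrambled cells, and the groups were apart in both (probe chr11:102297692-102297751, mm9).

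The transcription factor Tfeb, by its brightest probe, read 2.19 and 2.22 without IL-7, against 2.10 and 2.21 with IL-7, in sponge cells (0.05, 95% interval -0.17 to 0.27). In scrambled cells Tfeb read 2.12 and 2.26 without IL-7, against 2.24 and 2.35 with IL-7 (-0.10, interval -0.32 to 0.12). The groups overlapped in both constructs. Tfe3 read 2.49 and 2.44 without IL-7, against 2.21 and 2.27 with IL-7, in sponge cells (0.23, adjusted p = 0.0603), and 2.66 and 2.64, against 2.43 and 2.43, in scrambled cells (0.22 ± 0.07, adjusted p = 0.0373). The groups for Tfe3 were apart in both constructs, but the call in scrambled cells was lost in 13 of 16 alternatives, among them the replicate block (adjusted p = 0.0542).

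Members with CACGTG in the promoter window had smaller median changes than those without it. Of 9 tested with the motif, 1 was higher and 1 lower in sponge cells (median log2 change 0.02), and 3 were higher and 1 lower in scrambled cells (median 0.09). Of 18 without it, 6 were higher and 0 lower in sponge cells (median 0.27), and 13 were higher and 0 lower in scrambled cells (median 0.38). Over all genes 7.91% were called higher and 14.8% lower in sponge cells, and 20.0% and 28.0% in scrambled cells. The motif is thus found beside Ctsa, Lgmn and Gaa, which rose in scrambled cells, and beside Glb1, which fell. It is also found beside Ctsd, Mcoln1, Lamp1, Gla and Atp6v0d1, which were not called with that scaling. With quantile scaling Ctsd, Lamp1 and Mcoln1 were called higher in scrambled cells as well (0.34, 0.46 and 0.28). Among members without the motif, Psap was added there (0.58). The counts thus depend on the scaling, and medians by motif were not computed with quantile scaling. These counts are descriptions of 1 window per start and say nothing about binding.

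The sponge comparison asks which of these genes differed between miR-15 sponge and scrambled sponge cells. With IL-7 all members that passed the test were lower in sponge cells. Of 32 tested members 3 were called lower and 0 higher in sponge cells with IL-7, against 0.816% and 0.286% of all genes. Their median log2 difference, sponge minus scrambled, was -0.17, against 0.00 over all genes. Both sponge arrays lay below both scrambled arrays in 19 members and above in 0, where 24.6% and 26.1% of all genes did so. At an unadjusted p under 0.05 in limma, 11 members were lower and 0 higher, against 10.1% and 9.10% of all genes.

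The 3 called with IL-7 were Neu1, Ctss and Tpp1, whose array values are given above. Neu1 differed by -1.16 ± 0.13 (adjusted p = 0.0241), a ratio of 0.447. Ctss differed by -0.69 ± 0.09 (adjusted p = 0.0318) and Tpp1 by -0.53 ± 0.08 (adjusted p = 0.0476). Sponge arrays with IL-7 were below scrambled arrays with IL-7 in all 3, with no overlap. With the replicate number as a block Neu1 alone stayed called, since Ctss reached 0.0679 and Tpp1 0.0851. In a fit of the 4 arrays with IL-7 alone 0 members were called, as without any 1 of the 4 sponge arrays, and 1 was called without scrambled cells with IL-7 replicate 1 or without either array of scrambled cells without IL-7. Grn, the next in size, had -0.45 ± 0.13 (adjusted p = 0.159).

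**Figure D3:**
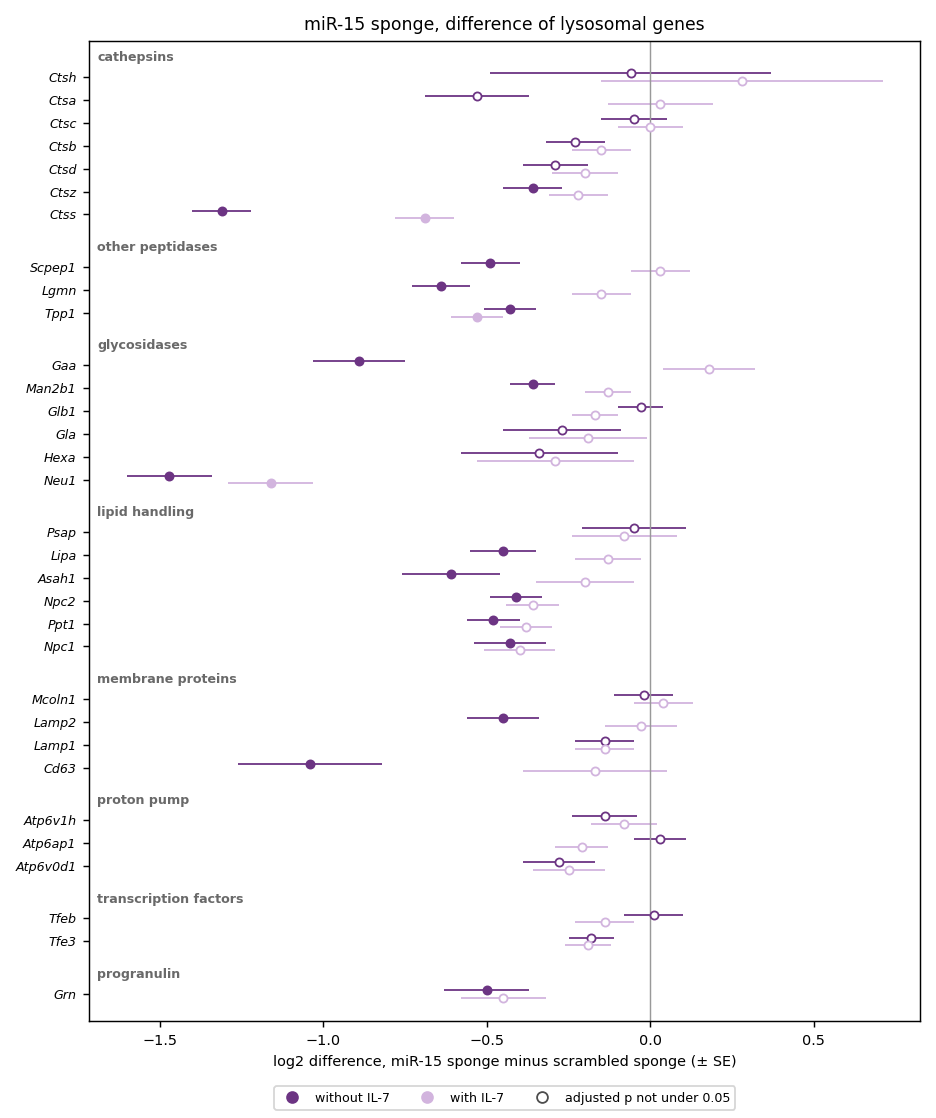
Log2 difference between miR-15 sponge and scrambled sponge cells (± SE from limma) of the 32 tested members by role, without IL-7 (dark, upper point) and with IL-7 (light, lower point), with filled points at an adjusted p under 0.05. Nearly all points lie left of 0, with 16 filled without IL-7 and 3 with IL-7, and Neu1, Ctss, Cd63 and Gaa lie farthest left without IL-7.

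Without IL-7 the miR-15 sponge cells had lower levels of members from 6 of the 8 roles. In sponge cells without IL-7, 16 of 32 members were called lower and 0 higher, against 14.7% and 17.0% of all genes, and 21 were lower and 0 higher at an unadjusted p under 0.05 in limma, against 21.5% and 21.3%. The median log2 difference was -0.36, against -0.04 over all genes, and both sponge arrays lay below both scrambled arrays in 24 members and above in 0, against 39.5% and 32.9% of all genes. By role, 2 of 7 cathepsins (Ctss, Ctsz), 3 of 3 other peptidases (Lgmn, Tpp1, Scpep1), 3 of 6 glycosidases (Neu1, Gaa, Man2b1) and 5 of 6 lipid-handling members (Npc1, Npc2, Lipa, Asah1, Ppt1) were called. So were 2 of 4 membrane proteins (Cd63, Lamp2) and Grn, while 0 of 3 proton pump subunits and 0 of 2 transcription factors were (1 of each at an unadjusted p under 0.05, both lower).

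The largest of these were Neu1 at -1.47 ± 0.13 (adjusted p = 0.00128), Ctss at -1.31 ± 0.09 (adjusted p = 0.00108), Cd63 at -1.04 ± 0.22 (adjusted p = 0.016) and Gaa at -0.89 ± 0.14 (adjusted p = 0.00642). For each of the 4, both sponge arrays were below both scrambled arrays. Neu1 stood at 0.362 of its scrambled level and Ctss at 0.403. The other 12 called members lay between -0.64 (Lgmn) and -0.36 (Ctsz and Man2b1). Leaving out scrambled cells without IL-7 replicate 2 reduced the count to 4 members, and replicate 1 to 10. Leaving out sponge cells without IL-7 replicate 1 or replicate 2 gave 7 each, and no member was called higher in any of these fits. Ctss, Neu1, Gaa and Lgmn stayed called in all 16 alternatives, but the 2nd Gaa probe had a difference of -0.14 (adjusted p = 0.628).

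The comparison without IL-7 and that of withdrawal in scrambled cells share the 2 arrays of scrambled cells without IL-7, so their overlap is not independent. Of the 16 members lower in sponge cells without IL-7, 14 were among the 17 higher on withdrawal in scrambled cells. The other two were Npc1 and Npc2, the cholesterol exporters. Npc1 read -1.66 and -1.50 in sponge cells and -1.24 and -1.06 in scrambled cells without IL-7 (-0.43, adjusted p = 0.0318). Npc2 read 3.96 and 3.97 in sponge cells and 4.31 and 4.43 in scrambled cells without IL-7 (-0.41, adjusted p = 0.0116). The Npc1 call was lost in 7 of 16 alternatives, among them quantile scaling (adjusted p = 0.0608), and the Npc2 call in 4 of 16. Their differences with IL-7, -0.40 and -0.36, were of similar size but not called (adjusted p = 0.148 and 0.101).

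Set against all other arrays, scrambled cells without IL-7 held the highest level of most members. In 19 of 32 members both of these arrays lay above the other 6, against 25.9% of all genes, and in 0 below them, against 26.6%. In 12 of 32 members both arrays of sponge cells with IL-7 lay below the other 6, against 12.1% of all genes, and in 0 did they lie above, against 16.8%. The 12 were Ctss, Ctsz, Lgmn, Tpp1, Neu1, Hexa, Man2b1, Npc1, Ppt1, Grn, Atp6ap1 and Tfe3. Sponge cells without IL-7 were highest in 0 members (2.05% of all genes) and lowest in 2 (Npc2 and Scpep1, 7.13%), and scrambled cells with IL-7 were highest in 1, Glb1 (6.54%), and lowest in 0 (3.95%). The summed signal of the 7 tested myeloid markers, relative to the 75th percentile and made up mostly of Itgam, was also highest in scrambled cells without IL-7. It was 18.1 to 18.5 in sponge cells without IL-7, 14.1 to 18.3 in sponge cells with IL-7, 27.2 to 27.5 in scrambled cells without IL-7 and 16.3 to 21.7 in scrambled cells with IL-7. That of 3 T cell markers was 13.7 to 14.1, 13.5 to 13.9, 19.4 to 19.5 and 17.0 to 17.7 in the same order, and that of the 10 pre-B cell markers 1460 to 1470, 1420 to 1590, 1670 to 1700 and 1590 to 1630. Such sums follow their brightest probes. Singly, 5 of the 10 pre-B cell markers were called lower and 1 higher in sponge cells without IL-7 (-2.55 to 0.32), against 14.7% and 17.0% of all genes. With IL-7, 1 was called lower and 0 higher (-2.4 to 0.15), against 0.816% and 0.286%. On withdrawal in scrambled cells 5 were called higher and 1 lower (-0.4 to 3.58), against 20.0% and 28.0%. The 7 myeloid markers went both ways on withdrawal in scrambled cells, 3 higher and 4 lower (median -0.09). Of them 1 was called higher and 1 lower, against 20.0% and 28.0% of all genes. Between constructs without IL-7, 6 were lower and 1 higher in sponge cells (median -0.33), with 0 called, against 31.7% of all genes. Lyz2, a defining myeloid gene, was well above background on 2 of 8 arrays, both of sponge cells with IL-7. The part of these markers in the lysosomal values was not tested.

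Whether withdrawal acted differently in the 2 constructs was tested as the difference of the withdrawal effects, sponge minus scrambled. Of 32 members 2 were called lower and 0 higher, against 0.919% and 4.80% of all genes (5.72% in all), and 6 were lower and 0 higher at an unadjusted p under 0.05 in limma, against 9.15% and 13.6%. The members' median was -0.08, against -0.02 over all genes. It was -0.16 with quantile scaling, -0.14 without sponge cells with IL-7 replicate 1, -0.15 without scrambled cells without IL-7 replicate 1, and -0.13 without sponge cells without IL-7 replicate 2. Gaa differed by -1.08 ± 0.20 (adjusted p = 0.0425) and Ctss by -0.62 ± 0.12 (adjusted p = 0.0467), each rising less in sponge cells. With the replicate block neither was called (adjusted p = 0.0714 and 0.0734). Leaving out any 1 of the 8 arrays ended the Ctss call (adjusted p = 0.056 to 0.145), and leaving out any but scrambled cells without IL-7 replicate 1 ended the Gaa call (0.0519 to 0.138). With normexp background correction Ctss had -0.44 (adjusted p = 0.130). Cd63 (-0.87 ± 0.31), Ctsa (-0.56 ± 0.23), Scpep1 (-0.52 ± 0.13) and Lgmn (-0.49 ± 0.13) came next in size and were not called (adjusted p = 0.0812 to 0.220).

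The withdrawal effects of the 2 constructs share no arrays. Across the 32 members, which are not independent of one another, they had a Pearson's r of 0.81 and a Spearman's rho of 0.82, against 0.73 and 0.74 over 21320 genes, and 28 of 32 (87.5%) had the same sign, against 79.3% of all genes. The change was larger in scrambled cells in 23 members (71.9%), against 73.5% of all genes, so the smaller changes in sponge cells were found in members and in all genes at about the same share.

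Some members have a 2nd probe, at another place in the gene except for Scpep1, whose 2 probes overlap. Kept probes number 2 in 11 members. In the scrambled withdrawal contrast their log2 changes lay within 0.3 of each other in 8 members and over 0.5 apart in 3, namely Ctsc, Tfeb and Gaa. These probes were examined after their values were seen, in a fit over all 30963 kept probes. The 2nd Ctsc probe (chr7:95435428-95435487, mm9), annotated to another transcript 23.0 kb from the brighter probe, read -1.83 and -1.56 in scrambled cells without IL-7, against -3.74 and -2.70 with IL-7 (1.53 ± 0.34, adjusted p = 0.0143). The brighter Ctsc probe (chr7:95458436-95458495) had a change of 0.01 there.

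The 2nd Tfeb probe (chr17:47876857-47876916), 52.2 kb from the brighter one (chr17:47929089-47929148), read -3.21 and -2.75 in scrambled cells without IL-7, against -3.74 and -4.49 with IL-7 (1.14 ± 0.35, adjusted p = 0.0415). In sponge cells that probe read -4.30 and -3.55 without IL-7, against -3.68 and -3.94 with IL-7 (-0.12, adjusted p = 0.853). Its signal is low, and the brighter probe of the same gene was level. The 2nd Gaa probe, well above background on 6 of 8 arrays, had 0.73 ± 0.19 in scrambled cells (adjusted p = 0.0258) but -0.14 ± 0.19 in sponge against scrambled cells without IL-7 (adjusted p = 0.628) and -0.38 ± 0.27 for the difference of the withdrawal effects (adjusted p = 0.468). The 2nd Ctsa probe was called higher in both constructs, by 0.64 in sponge cells (adjusted p = 0.00769) and by 0.91 in scrambled cells (adjusted p = 0.000715), and lower by -0.63 in sponge cells without IL-7 (adjusted p = 0.00395). The 2nd Lamp2 probe had 0.37 in sponge cells (adjusted p = 0.0766) and 0.44 in scrambled cells (adjusted p = 0.024), and its difference between constructs without IL-7, -0.30, was not called (adjusted p = 0.11). On withdrawal in scrambled cells the 2nd probes of Scpep1 (0.23, adjusted p = 0.143) and Tfe3 (0.08, adjusted p = 0.703) were not called either.

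**Figure D4:**
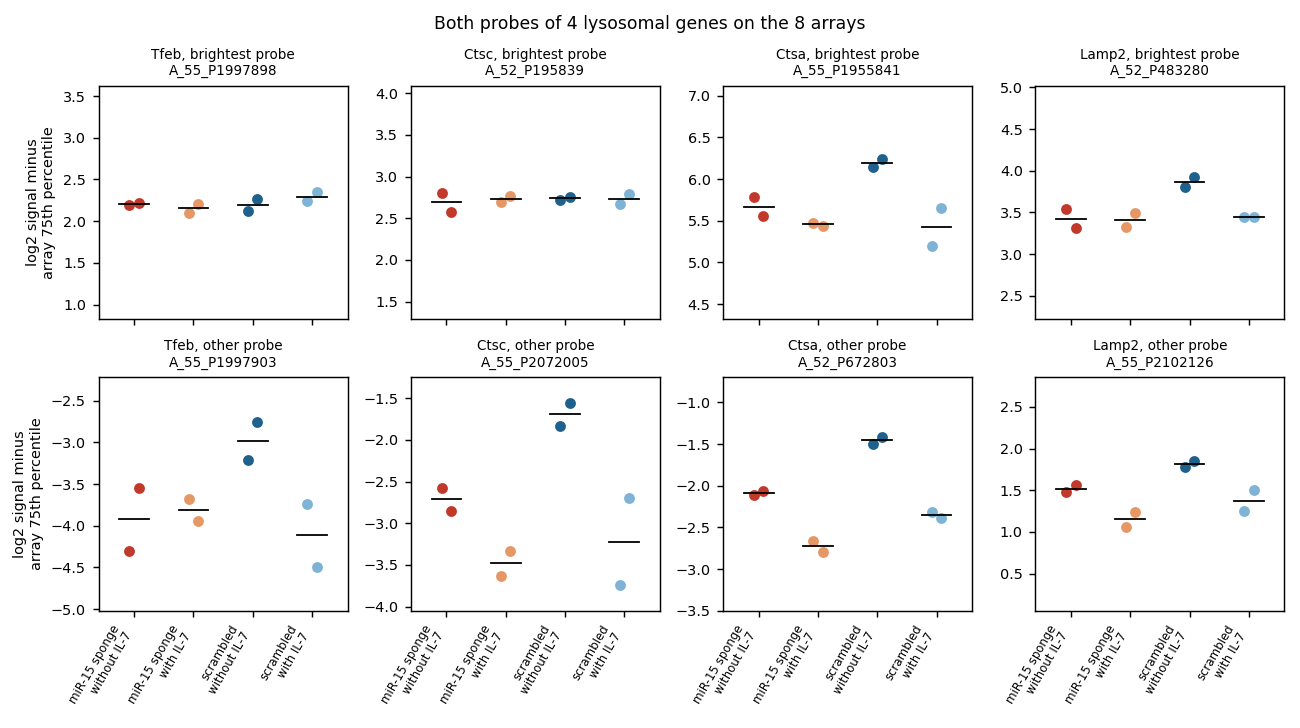
Log2 signal minus the 75th percentile of the array for the brightest kept probe (upper row) and the other kept probe (lower row) of 4 members, with 1 point per array and a line at the mean of the 2 arrays, and groups in the order of the other plots. For Ctsc and Tfeb the upper panels are level and the dimmer probes are highest in scrambled cells without IL-7, while both Ctsa probes show that group highest.

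Of the wider pathway, 90 other genes, 85 were tested. On withdrawal in sponge cells 12 of them were called higher (14.1%, against 7.91% of all genes) and 7 lower (8.24%, against 14.8%). In scrambled cells 23 were called higher (27.1%, against 20.0%) and 12 lower (14.1%, against 28.0%). In both constructs the share called higher was above that of all genes and the share called lower below it, as for the members, while the total called was 22.4% against 22.7% in sponge cells and 41.2% against 48.0% in scrambled cells. Between constructs 0 of the 85 were called higher or lower with IL-7, against 0.286% and 0.816% of all genes, and at an unadjusted p under 0.05 in limma 6 were higher and 10 lower in sponge cells, against 9.10% and 10.1% of all genes. Without IL-7, sponge cells had 7 called higher (8.24%, against 17.0%) and 15 lower (17.6%, against 14.7%).

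Other hydrolases called higher were 4 of 28 in sponge cells and 8 of 28 in scrambled cells, against 7.91% and 20.0% of all genes. The most negative called hydrolases were Naglu in sponge cells (-0.37, adjusted p = 0.0258) and Arsb in scrambled cells (-1.08, adjusted p = 0.0127). Of 12 other membrane proteins, Mfsd8 had the largest rise (0.57 and 0.89, adjusted p = 0.0209 and 0.00178) and Lamp3 the largest fall (-0.42 and -0.47, adjusted p = 0.0211 and 0.00612). Of 14 other proton pump subunits, Atp6v0a1, an a subunit of the membrane sector, read 2.24 and 2.34 without IL-7, against 1.47 and 1.39 with IL-7, in sponge cells (0.86 ± 0.10, adjusted p = 0.00432). In scrambled cells Atp6v0a1 read 2.99 and 3.07 without IL-7, against 1.51 and 1.71 with IL-7 (1.42 ± 0.10, adjusted p = 0.000309). The catalytic subunit Atp6v1a was lower in scrambled cells (-0.39, adjusted p = 0.015). In total 2 of the 14 subunits were higher and 0 lower in sponge cells, against 7.91% and 14.8% of all genes. In scrambled cells 4 were higher and 1 lower, against 20.0% and 28.0%.

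Among 9 sorting factors Gnptg, the gamma subunit of the phosphotransferase that makes the mannose 6-phosphate tag, rose by 0.31 in sponge cells and 0.57 in scrambled cells (adjusted p = 0.0336 and 0.0018), and Gga2, an adaptor for mannose 6-phosphate receptors, had -0.48 and -0.59 (adjusted p = 0.0117 and 0.0021). Among 18 tested genes of mTORC1 and TFEB control, Rragd, a Rag GTPase that recruits mTORC1 to lysosomes, rose by 1.24 ± 0.22 and 1.42 ± 0.22 (adjusted p = 0.0148 and 0.00367). Rheb, the GTPase that activates mTORC1, had -0.52 and -0.74 (adjusted p = 0.0189 and 0.00225). Flcn, folliculin, which acts on those Rag GTPases, was the 1 gene of the 85 called for the difference of the withdrawal effects (-0.47, adjusted p = 0.0494).

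Of 4 tested cathepsin inhibitors, Cst3 (cystatin C) rose by 0.40 and 0.50 in sponge and scrambled cells (adjusted p = 0.025 and 0.00505). Cst7, cystatin F, was not well above background on any array without IL-7. Its signal with IL-7 was at least 7.26-fold higher in sponge cells and at least 3.35-fold higher in scrambled cells. The bounds differ because Cst7 was higher with IL-7 in sponge cells (-2.48) than in scrambled cells (-3.6), and they do not rank the constructs. Its fitted log2 changes, which use signals below background, were -3.13 and -3.63.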

How the data were processed

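RNA of 8 cultures was hybridised to Agilent single-colour (Cy3) arrays, 1 array per culture. The deposited scanner tables hold a linear processed intensity per spot, background subtracted and detrended within the array but not scaled between arrays, per the file headers. Agilent Feature Extraction was used, version 10.7.1.1 per the submitters' processing notes and 10.7.3.1 per the file headers. The series' deposited value table is a table of linear intensities whose distribution is equal on all arrays, and how it was made is not stated in the sources used here.

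For the report, control spots and the 128 to 277 spots per array flagged as outliers were removed, log2 of the deposited intensity minus the 75th percentile of its array was taken, and spots of a probe were averaged. Probes were kept if, in 1 or more groups, both arrays were well above background (30963 of 55681), and the kept probe of highest mean stood for a gene, which gave 21320 genes. The 4 group means were fitted with limma 3.58.1 in R 4.3.3 (residual degrees of freedom 4, prior 1.838), with two-sided moderated tests and p-values adjusted per contrast over all genes by Benjamini and Hochberg. The fit was also run on simulated data with independent noise, which carry no clone, slide or scaling effects and so cannot show how it handles them. Precision is limited by the number of arrays. Probes are placed on mm9 by the deposited annotation, with no exon or transcript part assigned. Sequences came from RefSeq tables on GRCm38.p6.

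Values per array were given for called members (the 8 of largest change in each withdrawal contrast and the 4 largest in each other), for Tfeb, Tfe3, Mcoln1 and Grn, and for further called members to fill the roles. Other pathway genes were named as the called gene of largest rise and fall of each role, Flcn and Cst7 included. A gene that this rule names is not reported here. The members and lists were chosen with earlier results of these data known. The study's description gives separate experiments with independent clones for the replicates, so the numbers pair the groups, although deviations from the group means correlated weakly (r = 0.018 to 0.131). The alternatives were normexp background correction (offset 50), quantile scaling, the deposited value table, other filters on dim probes, the mean over probes, the replicate block, each array left out, and the 4 compared arrays alone. The other probes of members were tested after the data were seen.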

Additional observations from a re-analysis of the deposited data

Results flagged for a closer look

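The withdrawal effects of Gaa and Ctss differed between miR-15 sponge and scrambled sponge cells by the test of the difference itself. On the log2 scale Gaa had a change of 0.26 in sponge cells (adjusted p = 0.260) and rose by 1.33 in scrambled cells, a difference of -1.08 ± 0.20 (SE, adjusted p = 0.0425 in limma). Its 2nd kept probe gave -0.38 (adjusted p = 0.468). Ctss rose by 0.88 in sponge cells and by 1.49 in scrambled cells, a difference of -0.62 ± 0.12 (adjusted p = 0.0467), and it has 1 probe on the array. Neither call held with the replicate block (adjusted p = 0.0714 and 0.0734). Leaving out any 1 of the 8 arrays ended the Ctss call (adjusted p = 0.056 to 0.145), and leaving out any array but scrambled cells without IL-7 replicate 1 ended the Gaa call (0.0519 to 0.138).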

How the results depend on the processing

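No member changed direction and kept a call under the 16 alternatives tried for each contrast (15 for the difference of the withdrawal effects). Without a filter on dim probes, where 34743 genes were tested, the members called were 11 higher on withdrawal in scrambled cells, 0 lower in sponge cells with IL-7, 10 lower without IL-7 and 0 for the difference. The replicate block gave 1 lower in sponge cells with IL-7 and 0 for the difference. It also ended the call of Tfe3 on withdrawal in scrambled cells and added Ctsd to the members lower in sponge cells without IL-7, and it changed no other member's call. The mean over kept probes gave 1 for the difference, and the 4 arrays with IL-7 alone gave 0 lower in sponge cells. Leaving out 1 array at a time gave 5 to 7 members higher and 0 to 1 lower on withdrawal in sponge cells, and 8 to 15 higher and 1 lower in scrambled cells. It gave 0 to 3 lower in sponge cells with IL-7, 4 to 17 lower without IL-7, and 0 to 1 lower for the difference, with 0 higher in each of those 3. The cause of these shifts was not tested. Fits that leave out arrays also have fewer arrays, and the fit without the filter also tests more genes. Calls in all alternatives were kept by 5 of the 7 members higher on withdrawal in sponge cells, 8 of the 17 in scrambled cells, and 4 of the 16 lower in sponge cells without IL-7. Over all genes, calls ranged from 1688 to 5323 on withdrawal in sponge cells (4838 as reported), from 6786 to 10344 in scrambled cells (10234), from 4 to 1363 for the sponge with IL-7 (235), from 3388 to 7559 without IL-7 (6753) and from 0 to 1764 for the difference (1219). Other scalings moved the median of all genes by at most 0.07. Signal over background limits Ctsh, Ctsl, Hexa and the dimmer probes of Tfeb, Ctsc and Gaa.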
